A study of Homo sapiens with 12 samples.

Results

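Intronless protein-coding genes, whose RNA is made from a single exon, were examined in HEK293, a cell line of human embryonic kidney origin. The members were selected on annotation and level: every GENCODE 44 transcript of the gene had 1 exon, and the mean over 12 libraries was at least 1 RPKM (reads scaled by gene length and library size). Mitochondrial genes, histone genes and genes whose symbols start with ZNF, JUN, IER, CEBP, HSPA1, HEXIM or CSTF2T were left out. This gave 175 members of the 26058 genes listed, of which 14809 were protein coding. The rule left out 52 intronless genes by symbol and 13 on chromosome M, and 93 others lay below the level limit. The level was used to choose the members, so it is described without a test.

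Total RNA depleted of ribosomal RNA was sequenced from wild-type HEK293 cells (WT) and from cells in which CRISPR had been used to knock out PRKAA1 and PRKAA2 (AMPK KO), which encode the catalytic subunits of AMPK, a kinase that senses low cellular energy. All cells were starved of serum for 24 h. Each line then had 50 min with the solvent DMSO (WT DMSO and AMPK KO DMSO), with DMSO and with epidermal growth factor (EGF) for the last 30 min (DMSO+EGF), or with 25 µM cordycepin and EGF for the last 30 min (cordycepin+EGF). Cordycepin is 3′-deoxyadenosine, a nucleoside that ends an RNA chain when it is built in. The dose of EGF was given as 15 with units that differ between the sources (nM or µM). There were 2 libraries in each of the 6 groups, numbered 2 and 3. Whether AMPK KO cells were 1 clone is not given in the sources used here, so the knockout and other differences between the lines cannot be told apart.

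Most human genes carry introns, and splicing helps their RNA to be matured and exported. Transcripts of intronless genes skip splicing and rely on other routes for 3′ end processing and export. Many arose when the spliced RNA of another gene was copied back into the genome, and others, such as the SOX and forkhead transcription factors, frizzled receptors and bitter taste receptors, belong to families in which a single exon is common. Cordycepin is known to interfere with polyadenylation, a step that most intronless messages still need.

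Reads on listed genes numbered 4013039 in WT DMSO replicate 3 and 12691510 to 26475402 in the other libraries. Log2 values of WT DMSO replicates correlated across genes with r = 0.918, against 0.961 to 0.977 in the other groups. The median member had 41 reads in WT DMSO replicate 3 and 143 to 313 in the others, and 33 members had under 10 reads in that library, so values compared with WT DMSO are the least precise. PRKAA1 had 15.4 to 21.9 RPKM in WT DMSO and 7.37 to 7.62 RPKM in AMPK KO DMSO (log2 fold change -1.26, adjusted p 0.0228), and PRKAA2 had 7.97 to 12.1 and 5.59 to 6.08 RPKM (-0.73, adjusted p 0.112). Among genes expected in this line, IRS4 had a mean of 89.0 RPKM, VIM 65.7, KRT18 15.5 and KRT8 11.5, whereas NEFM, also on the list, was near 0 at 0.117 RPKM. The blood cell markers PTPRC (0.0253 RPKM) and CD68 (0.171 RPKM) were near 0. PECAM1, ALB and HBB were not found by symbol among the genes listed, so they have no values.

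Upstream sequences are shown for 3 members whose levels differed between groups, to place the level changes described below beside the DNA ahead of each start. They are 3 of the 9 members called over all groups, and the choice was made with their values known. The GC box is the site GGGCGG, bound by SP family factors. RefSeq gave 250 bases upstream of the start for 137 of the 175 members (GRCh38.p14). Each sequence is 5′ to 3′ on the strand of its gene, with GC boxes (GGGCGG, or CCGCCC for the other strand) and CCAAT boxes (CCAAT or ATTGG) in capitals.
RHOB, a small GTPase of the actin cytoskeleton (chr2:20446824-20447073, plus strand): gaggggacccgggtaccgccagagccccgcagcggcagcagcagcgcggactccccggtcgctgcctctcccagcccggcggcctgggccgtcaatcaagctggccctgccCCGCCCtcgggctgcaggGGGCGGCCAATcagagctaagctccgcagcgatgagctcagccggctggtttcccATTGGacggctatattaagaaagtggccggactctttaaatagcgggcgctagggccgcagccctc
RNF225, a gene of the RING finger family (chr19:58395406-58395655, plus strand): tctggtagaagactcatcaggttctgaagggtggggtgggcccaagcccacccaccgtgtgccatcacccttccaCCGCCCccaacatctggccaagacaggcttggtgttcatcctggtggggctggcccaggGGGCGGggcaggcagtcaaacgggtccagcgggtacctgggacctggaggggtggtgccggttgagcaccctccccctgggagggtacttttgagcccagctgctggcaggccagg
LENG9, a gene of the leukocyte receptor cluster region (chr19:54463779-54464028, minus strand): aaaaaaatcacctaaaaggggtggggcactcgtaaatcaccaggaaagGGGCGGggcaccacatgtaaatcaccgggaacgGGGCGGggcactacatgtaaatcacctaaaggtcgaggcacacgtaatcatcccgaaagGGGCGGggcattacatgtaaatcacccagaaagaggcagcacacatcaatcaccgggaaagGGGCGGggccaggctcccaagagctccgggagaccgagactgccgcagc
RHOB had 1 CCAAT box on each strand and 1 GC box on each strand, RNF225 had 1 GC box on each strand, and LENG9 had 4 GC boxes on its own strand. Searched on both strands, GGGCGG was found in 62.0% of the members' windows, in 68.9% of those of 8789 multi-exon genes with a mean of at least 1 RPKM, and in 42.3% of all 27305 windows. The TATA motif TATAAA was found in 11.7% of the members' windows, 4.8% of multi-exon windows and 11.1% of all windows. CCAAT was found in 35%, 35.6% and 33.0% of the same windows, the CRE motif TGACGTCA in 2.9%, 3.1% and 1.8%, the AP-1 motif TGANTCA in 4.4%, 3.4% and 6.6%, and the ETS motif CCGGAAG in 11.7%, 16.8% and 8.8%. The CArG box, the site of serum response factor, was found in 0.7%, 1.0% and 1.1%. GGGCGG and CCAAT matches can overlap, and a match is a description of letters and not of a bound site.

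The members' mean levels ran from 1.00 to 87.3 RPKM with a median of 4.11 RPKM. The median was 6.92 RPKM in the 10720 multi-exon genes and 59.65 RPKM in the 52 intronless genes left out by symbol. A mean above 10 RPKM was found for 45 members and a mean under 2 RPKM for 48. In 34 members at least 1 group had a mean under 1 RPKM, so these passed the limit through the groups in which they were higher. Just inside the limit were FOXD4L4 (1.001 RPKM), TAS2R5 (1.01) and PBOV1 (1.024), and just outside it were ATP5MGL (0.956), MAB21L2 (0.895) and FOXD4L3 (0.845).

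**Figure D1:**
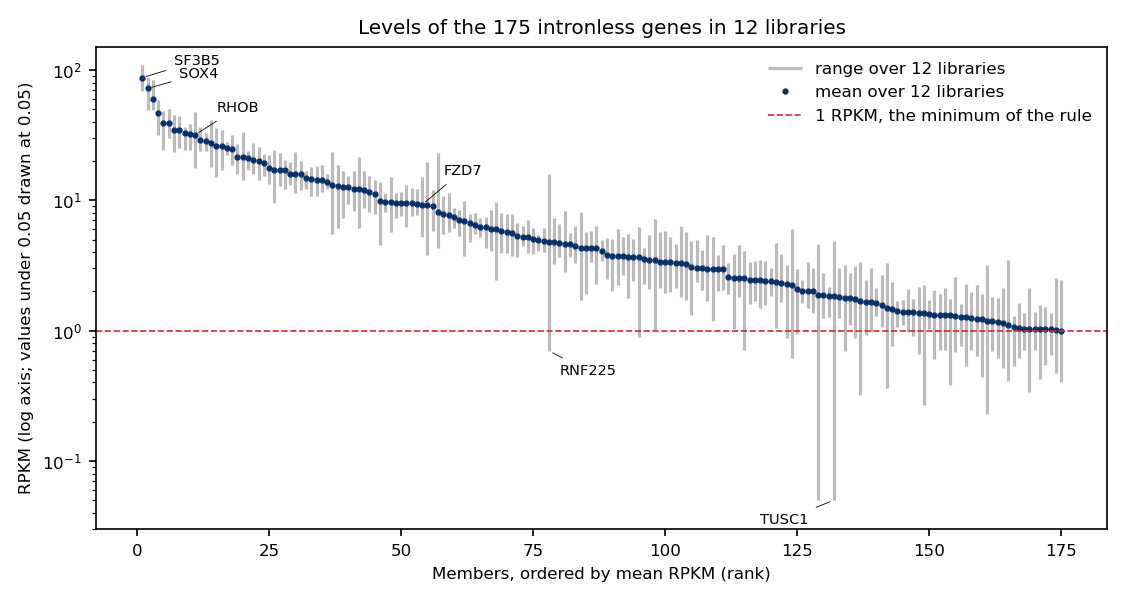
RPKM of the 175 members on a log axis, ordered by mean over 12 libraries (points), with the range over libraries (bars) and the limit of 1 RPKM (dashed line). Means ran from 87.3 RPKM for SF3B5 to 1.00 RPKM, and 2 members, TUSC1 and TAS2R3, reached 0 in at least 1 library, drawn at 0.05 RPKM.

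The highest member was SF3B5, a small subunit of the SF3b complex of the spliceosome, with 87.3 RPKM and a range of 69.0 to 109.0 RPKM. It was followed by the transcription factors SOX4 (72.2 RPKM, 49.3 to 87.8) and FOXC1 (60.2 RPKM, 49.0 to 83.3). EXOSC6, a subunit of the RNA exosome, had 46.5 RPKM (31.5 to 58.3), and SEPHS2, which makes the selenium donor for selenoproteins, had 39.1 RPKM (24.4 to 48.1). EID2, an inhibitor of differentiation factors, had 38.9 RPKM, PNMA1 34.9 RPKM and C6orf120 34.6 RPKM. EIF5AL1 (32.6 RPKM) and CSNK2A3 (32.4 RPKM) closed the first 10, and both are copies of other genes. A stretch of 17.6% of EIF5AL1 was at least 98% identical to EIF5A or its pseudogenes, and all of CSNK2A3 was near-identical to CSNK2A1, so reads could be split between copies and these levels are uncertain. Ranges of neighbours in this order overlapped from SF3B5 down to CSNK2A3.

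Levels differed widely within role lists. Of the small GTPases RHOB had 31.8 RPKM, RAP2B 6.22 RPKM and RAB6D 1.37 RPKM, and of the SOX factors SOX12 had 14.4 RPKM and the stem cell factor SOX2 7.4 RPKM. FOXD4 (2.97 RPKM) and FOXQ1 (2.55 RPKM) were far below FOXC1. The Notch feedback protein NRARP had 28.6 RPKM, the repressors IRF2BP1 and IRF2BPL 26.2 and 6.7 RPKM, and B3GALT6, which builds the linker of proteoglycans, 25.0 RPKM. Of the other glycan and lipid enzymes, PIGM, which makes GPI anchors, had 13.9 RPKM and PLPP6 4.71 RPKM. MAGEF1 had 25.9 RPKM and RTL8B 7.88 RPKM, and of the DNA and RNA binders PURB had 21.0, INSM1 5.6 and ZXDB 2.46 RPKM. The neural factor POU3F2 had 5.31 RPKM and POU5F2 1.4 RPKM. Among ubiquitin ligase adaptors KBTBD6 had 12.3, KLHL9 9.61 and RNF26 9.3 RPKM. The Wnt activator FRAT2 had 11.9 RPKM and PPP1R3D, a glycogen-targeting subunit of protein phosphatase 1, 3.52 RPKM. The membrane proteins TMEM203, TMEM185B and TMEM158 had 21.6, 14.5 and 5.26 RPKM, and CCDC8 and UQCRHL had 9.72 and 9.55 RPKM. FZD8, at 12.6 RPKM, was the highest receptor, and TAS2R30, nested in PRH1, was the highest bitter taste receptor at 4.84 RPKM.

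By symbol, 21 members were G-protein-coupled receptors, 12 RNA processing and translation factors, 10 traffic, chaperone and cytoskeletal proteins, 9 ubiquitin ligases or BTB proteins, 8 forkhead factors and 4 SOX factors. The receptors included 11 bitter taste receptors (TAS2R) and 5 frizzled receptors, which bind Wnt ligands. A further 80 members fell in no list. The median exon length was 2534 bases in members and 5391.5 in multi-exon genes, and the median GC content was 51.2% and 47.45%. Members lay on 22 chromosomes, with 16 on X and 15 on chromosome 6, and 170 had 1 annotated transcript.

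Many members shared their position with another gene. An intron of a gene on the same strand held 27 members, among them 10 of the 11 TAS2R genes, in PRH1, TAS2R14 or SSBP1. An intron on the opposite strand held 15, 11 overlapped an exon on the same strand, and 52 overlapped an exon on the opposite strand. A stretch near-identical to another gene (98% over at least 100 bases) covered at least 5% of the transcript in 23 members and all of it in 9, such as F8A1, F8A2 and F8A3. The other 80 members were clear of all of these. Reads of a nested member cannot be told apart from unspliced RNA of its host, and the strand setting used in counting was not stated, so reads from antisense partners may also be included.

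EGF was compared with DMSO in each line to follow the early response to it. In WT cells no member passed adjustment over all genes with limma (0 of 175, where 0.0227% of all 22067 genes tested passed), and voom on recovered reads also called 0. An unadjusted p under 0.05 was reached by 26 members (14.9%, against 9.72% of all genes), and all 26 were higher with EGF, whereas among all genes 1364 were higher and 780 lower. The median log2 fold change was 0.12 over members, 0.02 over all genes tested and 0.39 over the 52 intronless genes left out by symbol, which include JUNB (1.12, adjusted p 0.379), H1-10 (1.00, adjusted p 0.417) and H2AC4 (0.81, adjusted p 0.428). RPKM did not overlap between the 2 groups in 66 members (37.7%), against 36.5% of all genes. Among the 80 members clear of other genes and copies 18 reached that p, with a median of 0.19, and among the 27 nested in an intron on the same strand 1 did, with a median of -0.05. Without WT DMSO replicate 2, so that WT DMSO is represented by its shallow library, 8 members passed adjustment and the members' median was 0.06. The study's threshold combines an unadjusted p of at most 0.05 with a change of at least 1 on the log2 scale, and 5 members met it, all higher (1.54% of all genes in either direction). These were RNF225, CCDC85B, C6orf226, FNDC10 and HSPB9, and without WT DMSO replicate 2 there were 15, and 3 without either library of WT DMSO+EGF.

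RNF225 (ENSG00000269855, GRCh38 chromosome 19, 58395656 to 58397079, plus strand) had the smallest p. It had 0.742 and 0.698 RPKM in WT DMSO and 2.41 and 2.31 RPKM in WT DMSO+EGF. The EGF libraries were higher without overlap (log2 fold change 1.21, SE 0.24, p 0.000707, adjusted p 0.417). CCDC85B, a coiled-coil protein tied to transcriptional repression, had 6.1 and 6.19 RPKM in DMSO and 11.9 and 19.5 RPKM with EGF (1.22, SE 0.34, adjusted p 0.438). RNF26, a RING finger ubiquitin ligase of the endoplasmic reticulum, had 8.67 and 8.66 RPKM in DMSO and 12 and 12.1 RPKM with EGF (0.42, SE 0.12, adjusted p 0.438). In these 3 genes, named for the smallest p, the EGF libraries were above the DMSO libraries, and none passed adjustment. Of 9 ubiquitin ligase and BTB members 3 reached an unadjusted p under 0.05, all higher (9.72% of all genes, with 1364 of 22067 higher), with a list median of 0.36 against 0.02 over all genes. The small GTPase RHOB had 37.1 and 35.5 RPKM in DMSO and 45.4 and 47.8 RPKM with EGF (0.33, adjusted p 0.509).

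In AMPK KO cells EGF gave 0 members past adjustment with limma (0.0136% of all genes) and 0 with voom, and 6 members reached an unadjusted p under 0.05, 1 higher and 5 lower (2.42% of all genes). Just 1 member met the study's threshold, HSPB9 (0.594% of all genes), a small heat shock protein gene with 2.37 and 2.76 RPKM in DMSO and 1.05 and 0.66 RPKM with EGF (log2 fold change -1.18, adjusted p 1.0). RPKM did not overlap between the groups in 65 members (37.1%, against 38.5% of all genes). The smallest p values also included RGS9BP (-0.61) and SUMO4 (0.55), neither past adjustment. The members' median was -0.03, against 0.01 over all genes. The difference between the lines in the EGF effect was tested directly as an interaction. No member and no gene passed adjustment (0 of 175, 0.0% of all genes), and 26 members reached an unadjusted p under 0.05, 3 with a larger effect in AMPK KO cells and 23 with a smaller one (8.69% of all genes). Voom called 0 members in the interaction. The interaction values were -1.29 for RNF225 and -1.67 for CCDC85B, both with an adjusted p of 0.569. The EGF effect in WT cells and the interaction share the WT libraries.

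**Figure D2:**
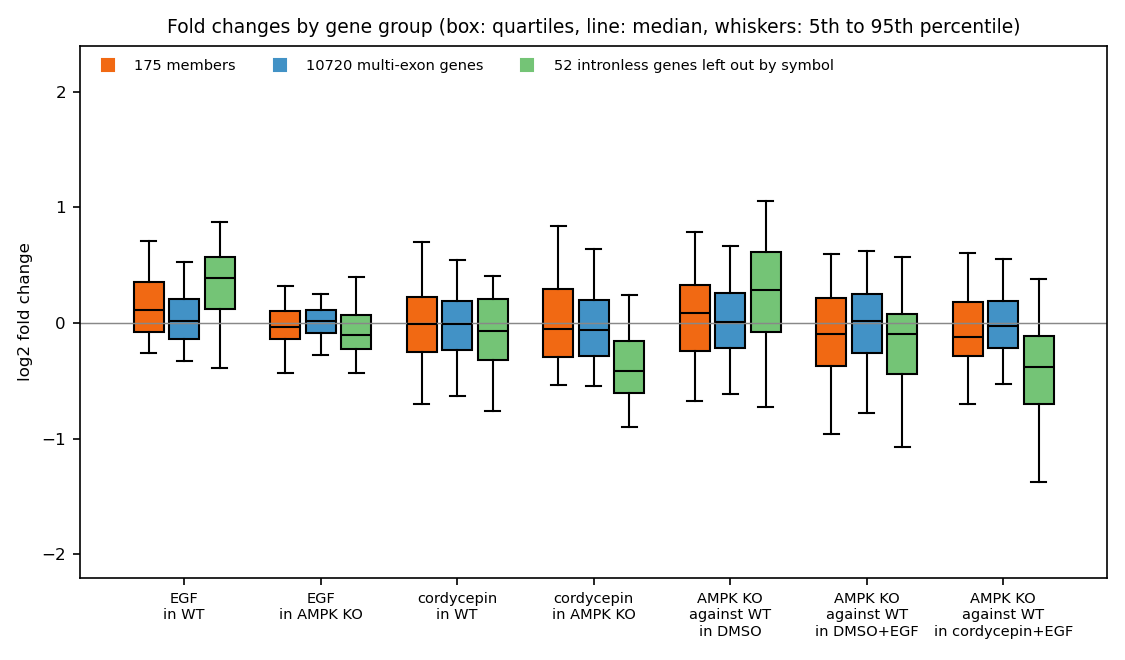
Log2 fold changes in 7 comparisons for the 175 members, 10720 multi-exon genes and 52 intronless genes left out by symbol (line, median; box, quartiles; whiskers, 5th to 95th percentile). The members' medians lay between -0.12 and 0.12, while those of the genes left out by symbol reached 0.39 with EGF in WT cells and -0.41 with cordycepin in AMPK KO cells.

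Cordycepin+EGF was compared with DMSO+EGF to measure the effect of cordycepin on cells given EGF. In AMPK KO cells 2 of the 175 members passed adjustment, both higher, RNF225 and LENG9 (0.471% of all genes passed). The unadjusted p was under 0.05 for 45 members, 22 higher and 23 lower (21.8% of all genes), and 8 members higher and 1 lower met the study's threshold (3.37% of all genes). The 8 include LENG9, TAS2R4 and FOXD4L4, whose group means were above 1 RPKM only with cordycepin. These were members through groups in which they were high. RXFP4, also among the 8, had a mean under 1 RPKM over the libraries without cordycepin. The count of 8 is therefore partly set by the rule. RPKM did not overlap between the groups in 97 members (55.4%, against 59.2% of all genes). The members' median was -0.05, against 0.06 over all genes, -0.06 over multi-exon genes and -0.41 over the intronless genes left out by symbol. Without AMPK KO cordycepin+EGF replicate 2 the members' median was 0.004 and without replicate 3 it was -0.15.

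RNF225 rose in AMPK KO cells. It had 1.98 and 1.93 RPKM in AMPK KO DMSO+EGF and 15.8 and 9.57 RPKM in AMPK KO cordycepin+EGF, which is 2.43 on the log2 scale (SE 0.24, adjusted p 0.012). In WT cells it had 2.41 and 2.31 RPKM with EGF and 7.82 and 9.89 RPKM with cordycepin and EGF (1.74, adjusted p 0.177), so cordycepin libraries lay above all others in both lines. The adjusted p in AMPK KO cells was 0.124 without AMPK KO DMSO+EGF replicate 2, 0.0998 without replicate 3 of that group, and 0.0807 once replicate 2 of AMPK KO cordycepin+EGF was dropped. LINC02560 starts 3141 bases downstream on the same strand, with 0.315 and 0.0 RPKM in AMPK KO DMSO+EGF and 7.59 and 3.22 RPKM in AMPK KO cordycepin+EGF (3.14, adjusted p 0.0505). The part of RNA from neighbouring genes in the RNF225 values was not tested.

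LENG9 (ENSG00000275183, chromosome 19, 54461732 to 54463778, minus strand) rose as well. It had 0.53 and 0.248 RPKM in AMPK KO DMSO+EGF and 3.17 and 2.48 RPKM in AMPK KO cordycepin+EGF, which is 1.95 on the log2 scale (SE 0.24, adjusted p 0.026). The WT libraries had 0.79 and 0.772 RPKM with EGF and 1.68 and 2.68 RPKM with cordycepin and EGF (1.07, adjusted p 0.252). With each of the 4 compared libraries left out in turn, the adjusted p in AMPK KO cells was 0.124 and 0.182 (AMPK KO DMSO+EGF replicates 2 and 3) and 0.236 and 0.0558 (AMPK KO cordycepin+EGF replicates 2 and 3). Its mean over the 12 libraries was 1.19 RPKM, and only the group means with cordycepin, 2.18 and 2.82 RPKM, were above 1 RPKM. LENG9 was therefore a member through the groups in which it was high and had to differ, and it is 1 of the 2 members counted as past adjustment here. LENG9 shares 285 bases with LENG8, a gene on the opposite strand that had 52 RPKM on average and a log2 fold change of 0.21 in AMPK KO cells.

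Values of G-protein-coupled receptors are given next. RXFP4, a receptor of the relaxin family, had 1.35 and 1.2 RPKM in AMPK KO DMSO+EGF and 2.97 and 3.32 RPKM in AMPK KO cordycepin+EGF (1.08, SE 0.22, adjusted p 0.0644), and in WT cells 0.843 and 1.13 RPKM against 1.6 and 2.36 RPKM (0.76, adjusted p 0.267). The mean of RXFP4 was 1.49 RPKM over all libraries and under 1 RPKM over those without cordycepin. RXFP4 was therefore a member through the cordycepin groups of both lines. The bitter taste receptor TAS2R4 had 0.72 and 0.693 RPKM in AMPK KO DMSO+EGF and 3.51 and 2.11 RPKM in AMPK KO cordycepin+EGF (1.46, SE 0.29, adjusted p 0.062), and in WT cells 0.896 and 0.836 RPKM against 0.912 and 0.957 RPKM (0.10). With a mean of 1.10 RPKM, TAS2R4 was above 1 RPKM in the mean of AMPK KO cordycepin+EGF alone and became a member through that group. TAS2R3 and TAS2R5, on the same chromosome, gave 1.64 and 0.92 on the log2 scale in the AMPK KO line (adjusted p 0.145 and 0.132), and TAS2R5, with a mean of 1.01 RPKM, likewise was above 1 RPKM in that group alone. TAS2R3 and TAS2R4 lie inside an intron of SSBP1, which had 0.33. Of the 21 receptors 5 reached an unadjusted p under 0.05 in AMPK KO cells, all higher, and 0 passed adjustment. That share was close to the 21.8% of all genes, of which 2578 were higher and 2227 lower. The receptors' median was 0.27, against 0.06 over all genes. The list holds the 2 receptors that entered through this group, and RXFP4. In WT cells 1 receptor was higher and 1 lower at that p, with a median of -0.067, against 0.033 over all genes. Among the 8 forkhead factors 3 were higher and 1 lower at that p in AMPK KO cells (21.8% of all genes), with a median of 0.32. The list holds FOXD4L4, which was above 1 RPKM in the cordycepin groups alone. Of 29 tested genes with FOX symbols that were not members, 3 were higher and 4 lower, with a median of -0.055.

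Lower values with cordycepin in AMPK KO cells were found for several members of high or middle level. SOX4 had 87.8 and 87.3 RPKM with EGF and 49.3 and 68.5 RPKM with cordycepin and EGF (-0.54, adjusted p 0.0998). EXOC8, a subunit of the exocyst, had 19.2 and 19.1 RPKM against 13 RPKM in both libraries (-0.49, adjusted p 0.0672), and HASPIN, a kinase of histone H3, had 20.9 and 22.8 RPKM against 14.1 and 12.8 RPKM (-0.63, adjusted p 0.0708). EXOC8 overlaps an exon of SPRTN on the opposite strand, which had -0.55 (adjusted p 0.0979), and HASPIN one of ITGAE, which had -0.12 (adjusted p 0.743). The part of SPRTN reads in the EXOC8 values was not tested. The cordycepin libraries lay below the EGF libraries in these 3 members, which were chosen after their values were seen, and none passed adjustment. The glutamate dehydrogenase copy GLUD2 was the 1 member past the study's threshold and lower, with 16.4 and 16.0 RPKM against 6.18 and 8.99 RPKM (-1.02, adjusted p 0.107). A stretch of 44.1% of GLUD2 is near-identical to GLUD1, which had -0.49 (adjusted p 0.092), and reads of the 2 genes cannot be told apart there. Of the 12 RNA processing and translation members 11 were lower, 1 of them at an unadjusted p under 0.05 (21.8% of all genes), with a median of -0.27, and 6081 of the 10720 multi-exon genes were also lower.

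In WT cells cordycepin gave 0 members past adjustment with limma (0.00453% of all genes, 1 gene) and 12 with voom on recovered reads. An unadjusted p under 0.05 was reached by 31 members, 14 higher and 17 lower (16.0% of all genes), and the study's threshold by 3 higher and 4 lower (2.61% of all genes). In 99 members RPKM did not overlap between the groups (56.6%, against 53.5% of all genes). The members' median was -0.01 and that of all genes 0.03. The 3 higher were RNF225, LENG9 and FOXD4L4 (1.03, adjusted p 0.267), of which LENG9 and FOXD4L4 were above 1 RPKM in the cordycepin groups alone, and the 4 lower were FNDC10, KCTD12, F8A1 and F8A3. RHOB had 45.4 and 47.8 RPKM in WT DMSO+EGF and 33.4 and 35.1 RPKM in WT cordycepin+EGF (-0.39, adjusted p 0.273), so the cordycepin libraries lay below the EGF libraries. The 3 copies of F8A, whose sequences are near-identical and cannot be told apart by reads, had -1.15 (F8A1), -0.88 (F8A2) and -1.04 (F8A3).

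**Figure D3:**
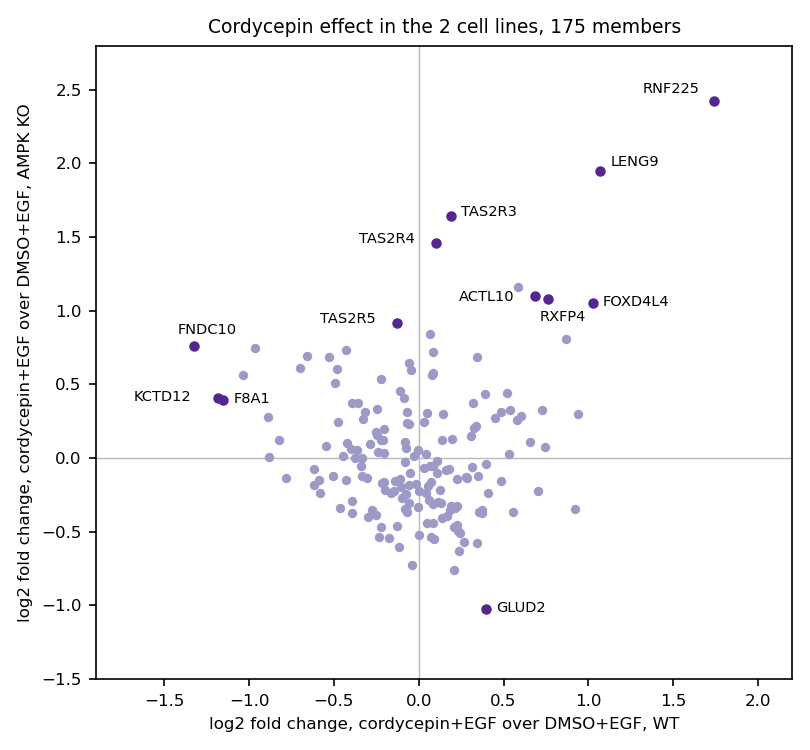
Log2 fold change of cordycepin+EGF over DMSO+EGF in WT cells (x axis) and AMPK KO cells (y axis) for the 175 members (points), with named members in dark. RNF225 (1.74 and 2.43) and LENG9 (1.07 and 1.95) stood at the upper right, and TAS2R3 and TAS2R4 were high on the y axis with values near 0 on the x axis.

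The difference between the lines in the cordycepin effect was tested as an interaction. With limma 0 members passed adjustment (0.0% of all genes), and 40 reached an unadjusted p under 0.05, 23 with a more positive value in AMPK KO cells and 17 with a more negative one (21.4% of all genes). Voom called 15 members, and a fit of only the compared groups called 11. The interaction was 2.08 for FNDC10 (adjusted p 0.126), 1.36 for TAS2R4, -0.73 for EXOC8 (adjusted p 0.122) and -0.87 for HASPIN (adjusted p 0.122). For RNF225 it was 0.69 (adjusted p 0.276) and for LENG9 0.88 (adjusted p 0.192).

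The lines were compared under each treatment. In DMSO 2 members passed adjustment, FZD7 higher and TUSC1 lower in AMPK KO cells (0.44% of all genes). An unadjusted p under 0.05 was reached by 46 members, 28 higher and 18 lower (21.3% of all genes), and the study's threshold by 8 higher and 5 lower (3.91% of all genes). In 92 members RPKM did not overlap between the lines (52.6%, against 48.5% of all genes). Without WT DMSO replicate 3, the shallow library, 29 members passed adjustment and 20 passed the study's threshold, while 1 passed adjustment without AMPK KO DMSO replicate 2 and 0 without replicate 3.

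FZD7 (ENSG00000155760, chromosome 2, 202033855 to 202038441, plus strand), a frizzled receptor for Wnt ligands, rose in AMPK KO cells. It had 5.24 and 5.52 RPKM in WT DMSO and 12.4 and 15.0 RPKM in AMPK KO DMSO (log2 fold change 1.24, SE 0.12, adjusted p 0.0078, and 0.124 without AMPK KO DMSO replicate 3). With EGF it had 6.48 and 7.61 RPKM in WT cells and 11.7 and 10.9 RPKM in AMPK KO cells (0.66, adjusted p 0.0416). With cordycepin and EGF it had 7.89 and 7.65 against 10.3 and 10.4 RPKM (0.41, adjusted p 0.253). The AMPK KO libraries lay above the WT libraries under every treatment. Of the 4 other frizzled members none passed adjustment in DMSO. FZD8, the highest of them, had 9.44 and 13.2 RPKM in WT DMSO and 12.9 and 13.5 RPKM in AMPK KO DMSO (0.20), and FZD1 had 1.62 and 1.3 against 1.55 and 1.43 RPKM (0.01). FZD2 had 3.68 and 4.01 RPKM in WT DMSO and 3.04 and 3.02 RPKM in AMPK KO DMSO (-0.32), and FZD9, which signals through the same pathway, had 2.43 and 1.48 against 0.693 and 1.17 RPKM (-0.79, adjusted p 0.148).

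TUSC1 (ENSG00000198680, chromosome 9, 25676969 to 25678444, minus strand), a candidate tumour suppressor gene, fell in AMPK KO cells under all 3 treatments. The reads in WT cells were 46 and 26 in DMSO, 150 and 119 in DMSO+EGF, and 114 and 96 in cordycepin+EGF. AMPK KO cells had 3 and 2 reads in DMSO and 0 in the other 4 libraries. The mean of TUSC1 over the 12 libraries was 1.84 RPKM. Its WT group means were 3.1 (DMSO), 4.45 (DMSO+EGF) and 3.37 RPKM (cordycepin+EGF). TUSC1 was therefore a member through its WT levels and had to differ, and it is counted in all 3 comparisons between the lines. In DMSO the level in WT cells was 21.8 times that in AMPK KO cells (95% exact interval 8.92 to 69.2, counting error only). TUSC1 was at least 30.3-fold lower with EGF and at least 27.4-fold lower with cordycepin and EGF, against a floor of 3 reads per library. The adjusted p was 0.0223 in DMSO, 0.00735 in DMSO+EGF and 0.0108 in cordycepin+EGF. With each compared library left out in turn it was 0.00516 to 0.213 in DMSO (above 0.05 without either AMPK KO library), 0.0765 to 0.115 in DMSO+EGF and 0.0607 to 0.144 in cordycepin+EGF. Fewer cells with the transcript and less of it per cell cannot be told apart in bulk RNA. Both neighbours given here lie far from TUSC1. ELAVL2, 1.85 Mb away, had a log2 fold change of -0.22 in DMSO+EGF (adjusted p 0.459), and CAAP1, 1.16 Mb away, had 0.24 (adjusted p 0.492).

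In DMSO+EGF 8 members passed adjustment, 3 higher and 5 lower in AMPK KO cells (4.57%, against 1.74% of all genes and 2.61% of multi-exon genes). The count of 8 became 0 without any 1 of the 4 compared libraries and was 29 with voom. With a replicate block within each line it was 1, TUSC1 (adjusted p 0.0273), and the other 7 had 0.0523 to 0.0703. An unadjusted p under 0.05 was reached by 43 members, 12 higher and 31 lower (22.5% of all genes), and the study's threshold by 9, all lower (3.4% of all genes). RPKM did not overlap between the lines in 123 members (70.3%, against 62.8% of all genes). The members' median was -0.09, against -0.01 over all genes and 0.02 over multi-exon genes.

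The 3 higher members were FZD7, RBM15B and WDR5B. RBM15B, which guides the methylation of adenosine in RNA, had 14.1 and 14.3 RPKM in WT DMSO+EGF and 21.4 and 21.7 RPKM in AMPK KO DMSO+EGF (0.60, SE 0.10, adjusted p 0.0352). It shares 2042 bases with DCAF1 on the opposite strand, which also rose (0.85, adjusted p 0.0246). MANF ends 1887 bases upstream on the same strand and had 34.2 RPKM on average and a log2 fold change of 0.84. The part of DCAF1 or MANF reads in the RBM15B values was not tested. WDR5B, a copy of the chromatin adaptor gene WDR5, had 2.02 and 2.75 RPKM in WT cells and 4.82 and 5.08 RPKM in AMPK KO cells (0.94, SE 0.15, adjusted p 0.0289). It shares 489 bases with FAM162A on the opposite strand, which had 0.39 (adjusted p 0.183). An unnamed gene with 8.77 RPKM on average ends 819 bases upstream of WDR5B on the same strand. That gene had 0.28 in DMSO+EGF, 1.185 in DMSO and 1.41 in cordycepin+EGF, and its part in the WDR5B values was not tested. In both genes the AMPK KO libraries lay above the WT libraries under every treatment.

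The 5 lower members were TUSC1, FNDC10, RPRM, RPP25 and RHOB. RPRM, a p53 target that arrests the cell cycle in G2, had 8.19 and 6.36 RPKM in WT DMSO+EGF and 1.88 and 2.24 RPKM in AMPK KO DMSO+EGF (-1.58, SE 0.25, adjusted p 0.0292). Its AMPK KO libraries also lay below the WT libraries in DMSO (-1.05, adjusted p 0.0861) and in cordycepin+EGF (-1.43, adjusted p 0.118). It sits in an intron of an unnamed gene on the same strand. RHOB (ENSG00000143878, chromosome 2, 20447074 to 20449440, plus strand) had 45.4 and 47.8 RPKM in WT cells and 26.7 and 28.8 RPKM in AMPK KO cells (-0.72, SE 0.14, adjusted p 0.0432), and -0.55 in DMSO (adjusted p 0.0932) and -0.70 in cordycepin+EGF (adjusted p 0.147).

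FNDC10, a fibronectin domain protein, had 6.05 and 4.92 RPKM in WT DMSO+EGF and 1.29 and 0.614 RPKM in AMPK KO DMSO+EGF (-2.06, SE 0.40, adjusted p 0.0458). RPP25, a subunit of RNase P and RNase MRP, had 1.84 and 2.12 RPKM against 0.583 and 0.338 RPKM (-1.36, SE 0.27, adjusted p 0.0476). Its mean was 1.03 RPKM, with group means above 1 RPKM in the 3 WT groups alone, so RPP25 was a member through its WT levels and had to differ, and it is 1 of the 8 counted. In WT DMSO these genes spread widely, with 3.43 and 1.4 RPKM for FNDC10 and 1.47 and 0.633 RPKM for RPP25. KCTD12, a BTB protein that binds GABA-B receptors, had 16.9 and 17.7 RPKM against 6.06 and 4.25 RPKM (-1.65, adjusted p 0.064). Of 9 ubiquitin ligase and BTB members 8 were lower in AMPK KO cells, 3 at an unadjusted p under 0.05, with a median of -0.36 (22.5% of all genes reached that p, and 11149 of 22067 were lower), and this comparison shares the WT DMSO+EGF libraries with the EGF effect in WT cells.

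In cordycepin+EGF 1 member, TUSC1, passed adjustment (0.118% of all genes), and it was a member through its WT levels. An unadjusted p under 0.05 was reached by 33 members, 12 higher and 21 lower (13.7% of all genes), and the study's threshold by 3 higher and 2 lower (1.55% of all genes). RPKM did not overlap between the lines in 89 members (50.9%, against 45.6% of all genes). The 3 higher were TAS2R4 (1.19), TAS2R5 (1.18) and SETSIP (1.47). TAS2R4 and TAS2R5 were above 1 RPKM in the mean of AMPK KO cordycepin+EGF alone, so they were members through that group and had to differ. SETSIP rested on 1 library, with 23.1 RPKM in AMPK KO replicate 2 and 7.51 in replicate 3, against 4.77 and 4.33 RPKM in WT cells. The 2 lower were TUSC1 and RPRM. TUSC1 had an adjusted p of 0.0683 with a replicate block within each line. The count of 1 also became 0 when either WT library or AMPK KO replicate 2 was left out, and without WT cordycepin+EGF replicate 2 10 members met the study's threshold.

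Over all 6 groups together, limma's F test called 9 members (1.84% of all genes), and 58 members had an unadjusted p under 0.05 (26.3% of all genes). The 9 were RNF225 (adjusted p 0.00227), TUSC1 (0.00399), FZD7 (0.0118), LENG9 (0.017), RPRM (0.0285), RHOB (0.0296), RXFP4 (0.0296), RBM15B (0.0397) and WDR5B (0.0472). Of these, TUSC1, LENG9 and RXFP4 were members through the groups in which they were high. With each library left out in turn the count ran from 2 to 40, with 40 without WT DMSO replicate 3, 29 without WT DMSO replicate 2, and 2 to 4 without any other library except AMPK KO cordycepin+EGF replicate 3.

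**Figure D4:**
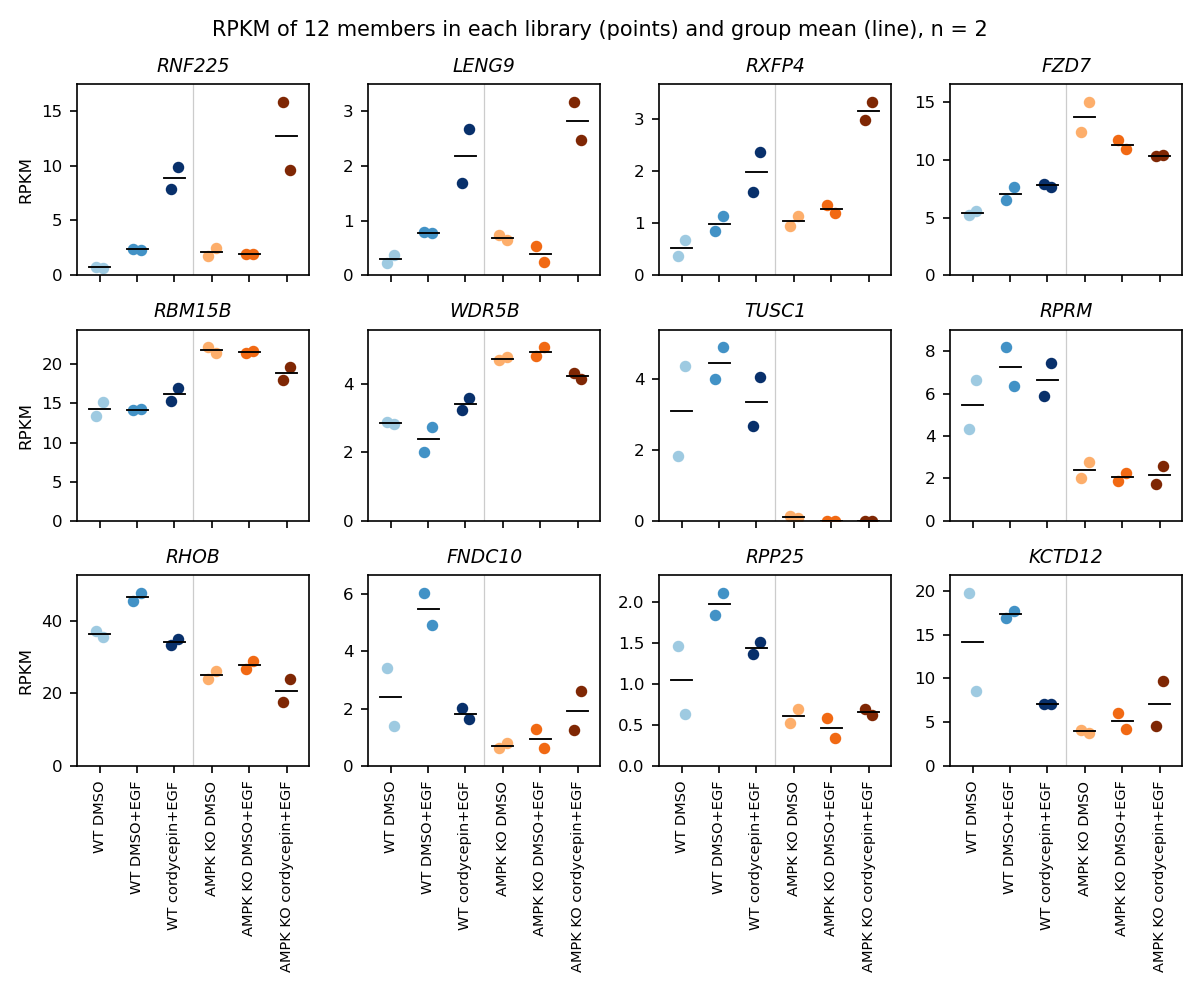
RPKM of 12 members in each library (points) with the group mean (line, n = 2), WT groups in blue and AMPK KO groups in orange, each panel with its own axis from 0. RNF225, LENG9 and RXFP4 were highest with cordycepin and EGF in both lines, TUSC1 was at or near 0 in all AMPK KO libraries, and FZD7, RBM15B and WDR5B were higher in AMPK KO cells.

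Replicates of members differed by more than those of multi-exon genes in every group. Members also had a lower median level (4.11 against 6.92 RPKM) and a shorter median exon length (2534 against 5391.5 bases). The part of read depth in this spread was not tested. The median absolute log2 difference between replicates ran from 0.138 in AMPK KO DMSO+EGF to 0.305 in WT DMSO for members, and from 0.089 to 0.274 in the same groups for multi-exon genes.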

How the data were processed

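RNA was sequenced by the authors as paired, stranded reads of ribosome-depleted RNA, mapped to GRCh38.p13 and counted per gene with Rsubread. The deposited values are RPKM, and the authors discarded replicate 1 of each group. Groups and replicate numbers came from the sample labels. The labels do not say whether replicates were separate cultures, so p-values measure the spread between these libraries only. Gene models were GENCODE 44, which matched 26029 genes. Near-identical copies were searched with blastn 2.17.0+.

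Values were analysed as log2(upper-quartile-scaled RPKM + 0.5), on which changes of weakly expressed genes come out too small. Genes with a mean of at least 0.5 RPKM, 22067 in all, were tested with limma 3.58.1 in R 4.3.3 (contrasts of group means, moderated with a mean-variance trend, two-sided). All 12 libraries entered 1 model, with 6 residual degrees of freedom (8.96 after moderation) and Benjamini-Hochberg adjustment within each comparison. A call is an adjusted p under 0.05, and SE is the moderated standard error. The script was tested on simulated data. RPKM gave whole reads within 0.05 of a read for 96.25% of genes and for all 175 members.

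The alternatives tried were a pseudocount of 0.1 or 1, a minimum of 1 RPKM or none, RPKM as deposited, median-ratio scaling, only the compared groups, a replicate block over all libraries or within each line, voom on the recovered reads and leaving out each library. Genes named are PRKAA1, PRKAA2, the 10 highest members, members at the level limit, up to 5 called members per direction and comparison with no overlap of libraries, the 3 smallest p per comparison, the top 3 by level of each role list, the 5 smallest F tests and 3 genes left out by symbol. Other members were named after their values were seen. The members, lists and rules were chosen with earlier results of these data known. Some results on single genes are not reported here.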

Additional observations from a re-analysis of the deposited data

How the results depend on the processing

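The counts of members past adjustment depended on how the spread was estimated more than on pseudocount, filter or scaling, which left each count within 1.5 times the one reported. With voom on recovered reads the count was 12 for cordycepin in WT cells, 12 for cordycepin in AMPK KO cells, 19, 29 and 4 for AMPK KO against WT in DMSO, DMSO+EGF and cordycepin+EGF, 15 for the cordycepin interaction and 31 over the 6 groups. With a fit limited to the groups compared it was 0 for cordycepin in AMPK KO cells, 0, 29 and 0 for the lines in the same 3 treatments and 11 for the cordycepin interaction. The causes were not tested. With each library left out the count ran from 0 to 8 for EGF in WT cells, 0 to 1 for cordycepin in AMPK KO cells, 0 to 29, 0 to 0 and 0 to 1 for the lines in DMSO, DMSO+EGF and cordycepin+EGF, and 2 to 40 over the 6 groups. A group left with 1 library was assumed to vary like the others. Of 56 fold changes of single members run under these alternatives, 26 chosen by the rule and 30 after their values were seen, 2 changed sign, both for AMPK KO against WT in DMSO and not past adjustment. FZD1 had -0.124 with the replicate block within each line and -0.034 with voom, and -0.111 to 0.135 with a library left out, and FZD8 had -0.024 to 0.433 with a library left out. A pseudocount of 1 lowered the members past the study's threshold from 13 to 7 in DMSO between lines, and from 5 to 1 for EGF in WT cells. Depth limits members under 10 reads in WT DMSO replicate 3.

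Replicate numbers are shared by all groups. Differences between replicates 2 and 3 correlated across genes between WT groups with r of 0.136, 0.282 and 0.314, and between AMPK KO groups with -0.122 to 0.031, so the numbers did not pair the libraries throughout. With a replicate block over all libraries the count was 2 for AMPK KO against WT in DMSO, 7 in DMSO+EGF and 8 over the 6 groups. When the replicate block was set within each cell line it was 1 in DMSO+EGF, 0 in cordycepin+EGF and 2 over the 6 groups, and RNF225 and LENG9 with cordycepin in AMPK KO cells each had an adjusted p of 0.04997, just under the limit.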

Other observations

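Of 174 members, 25 had a tested gene on the same strand that ends within 5 kb upstream. Their median log2 fold change was 0.24 with cordycepin in WT cells, against -0.06 for the 149 without such a gene, and 0.05 against -0.05 in AMPK KO cells. For EGF the medians were 0.08 and 0.13 in WT cells and -0.085 and -0.031 in AMPK KO cells. A difference was also present between the lines without cordycepin. For AMPK KO against WT the medians were 0.42 and 0.052 in DMSO and 0.138 and -0.138 in DMSO+EGF. In cordycepin+EGF they were -0.109 and -0.124. ACTL10, an actin-related gene, had 1.55 and 1.51 RPKM in AMPK KO DMSO+EGF and 4.74 and 2.9 RPKM in AMPK KO cordycepin+EGF (1.10, adjusted p 0.0699), and C20orf144, 1323 bases away, had 0.63. INAFM1, with CCDC9 1183 bases away, had 15.3 and 20.2 RPKM in WT cordycepin+EGF and 8.56 and 10.2 RPKM in WT DMSO+EGF (0.92), and CCDC9 had 0.84 (adjusted p 0.291).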
